A study of Homo sapiens with 38 samples.

Results

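The genes of the integrated stress response and the unfolded protein response were followed in nuclear and cytoplasmic RNA of HCT116 cells that lacked Argonaute (AGO) proteins. The 43 genes were taken by name from textbook knowledge of both pathways, with earlier results of these data known, and they are 43 of the 58425 genes with a matched transcript. Of these, 42 had enough reads to be tested in each fraction, among 18919 genes tested in nuclear RNA and 17605 in cytoplasmic RNA. The remaining gene, VLDLR, a lipoprotein receptor induced by ATF4 in some tissues, was at most 0.00225 TPM (a length-adjusted level relative to all transcripts of a library) in any library and was not tested.

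In the integrated stress response, stress-sensing kinases phosphorylate the initiation factor eIF2, which lowers general translation and favours translation of the transcription factor ATF4. ATF4 then induces genes for amino acid synthesis and transport, tRNA charging and feedback control, several of which also react to amino acid shortage without any disturbance of the endoplasmic reticulum (ER). The unfolded protein response reads misfolded protein in the ER through the sensors PERK (gene EIF2AK3, which feeds into eIF2), IRE1 (ERN1) and ATF6, and ATF6 together with XBP1, the transcription factor made from IRE1-spliced RNA, raises ER chaperones and ER-associated degradation. For counting, the 26 genes for stress regulators, serine, folate-cycle and asparagine synthesis, amino acid transport and tRNA charging are called the ATF4 program (25 tested), and the 17 genes for sensors, chaperones and ER-associated degradation the ER branch (17 tested).

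HCT116 is a diploid human colorectal carcinoma line. RNA was sequenced from wild-type HCT116 cells and from 4 lines made from HCT116 by CRISPR editing, AGO1 knockout (AGO1-/-), AGO2 knockout (AGO2-/-), AGO1/2 knockout (AGO1-/- AGO2-/-) and AGO1/2/3 knockout (AGO1-/- AGO2-/- AGO3-/-), none of them given any other treatment. There were 10 groups, 1 per genotype in each fraction, with 3 libraries each, taken at successive or nearly successive culture passages: 27, 28 and 29 for wild type, 6, 7 and 8 for AGO1 knockout, 8, 9 and 10 for AGO2 knockout, 9, 10 and 11 for AGO1/2 knockout, and 11, 12 and 14 for AGO1/2/3 knockout. Each genotype was 1 line, so genotype, clone and passage cannot be told apart, and the p-values measure the spread between cultures of 1 line. The question put to these genes was whether loss of AGO proteins goes with a different level of either stress pathway, and whether both fractions show it.

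Nuclear libraries held 20431557 to 54097984 estimated reads (median 35884563) and cytoplasmic libraries 39476205 to 79731793 (median 76102958), and the wild-type libraries were the shallowest of each fraction. The log2 change of AGO1 RNA in the 3 lines edited in AGO1 was -1.90 to -1.25 in nuclear RNA and -3.49 to -3.19 in cytoplasmic RNA. AGO2 RNA in the 3 lines edited in AGO2 ranged from -0.47 to -0.18 (log2) in nuclear RNA and from -0.67 to 0.31 in cytoplasmic RNA, and AGO3 RNA in AGO1/2/3 knockout cells was -0.30 and 0.34, so RNA level checks the AGO1 edit and not those of AGO2 and AGO3. The epithelial keratin KRT8 was at 421 to 1265 TPM in nuclear and 294 to 528 TPM in cytoplasmic libraries, while the blood marker PTPRC stayed at or under 0.00413 TPM and the fibroblast marker COL1A2 at or under 0.0311 TPM. The other fibroblast marker, COL1A1, was at 3.57 to 6.21 TPM in nuclear and 0.633 to 1.60 TPM in cytoplasmic libraries. The nuclear RNA MALAT1 was at 1200 to 3486 TPM in nuclear and 79.9 to 156 TPM in cytoplasmic libraries.

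The wild-type culture of passage 29 stood apart, and many of the values below turn on it. In wild-type passage 29, all 25 tested genes of the ATF4 program had their highest wild-type value, in nuclear and in cytoplasmic RNA alike. Over all genes tested, 26.5% in nuclear and 30.5% in cytoplasmic RNA were highest in that library. The program lay 1.07 (nuclear) and 1.13 (cytoplasmic) above the mean of passages 27 and 28 in median log2 TPM, and 14 of the 25 genes were at least 2-fold above it in each fraction, against 3.51% and 4.61% of all genes. The pro-apoptotic transcription factor DDIT3 (CHOP) stood 7.46-fold higher in nuclear and 19.7-fold higher in cytoplasmic RNA of passage 29. The corresponding folds were 9.60 and 16.6 for CHAC1, a glutathione-degrading enzyme, 9.47 and 11.4 for DDIT4, an inhibitor of mTOR signalling, and 5.90 and 5.65 for TRIB3, a pseudokinase that restrains ATF4. ATF4 RNA itself was 1.67-fold and 1.87-fold higher. In the ER branch 8 (nuclear) and 7 (cytoplasmic) of 17 genes were highest in passage 29, none at least 2-fold higher, with median differences of -0.03 and 0.03. Its role groups were not alike. Passage 29 was highest for 2 of 11 chaperones in each fraction (18.2%), for 4 of 4 nuclear and 3 of 4 cytoplasmic RNAs of the sensors and XBP1 (medians 0.26 and 0.41), and for both ER-associated degradation genes in each fraction (medians 0.45 and 0.29). The chaperone-complex member SDF2L1 was lower there, at 0.593 and 0.607 of the mean of the other passages, and so was the chaperone CALR, at 0.750 and 0.648. The passage 29 library was also the shallowest nuclear library, and the part that depth or culture state plays in its values was not tested. Because wild type has 3 libraries, each comparison with wild type is given with and without passage 29. The latter choice was made after the data had been seen. Since all 25 program genes were highest in passage 29, leaving it out lowers their wild-type mean and so moves their changes upwards. For that program the counts and p-values without passage 29 are therefore a description and no separate test.

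**Figure D1:**
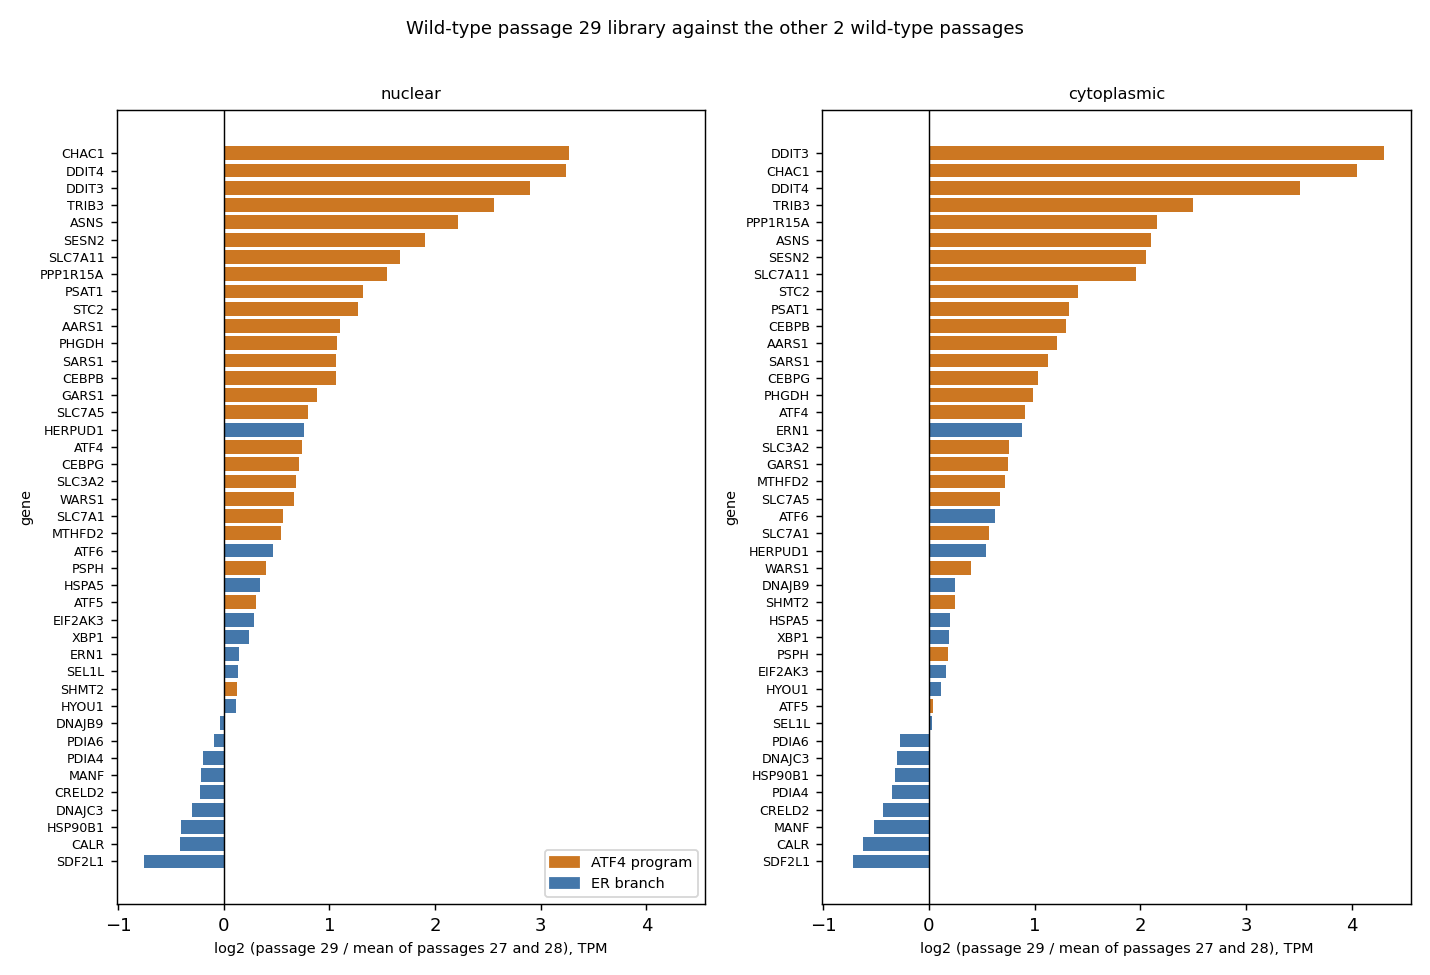
Log2 ratio of TPM in wild-type passage 29 to the mean of passages 27 and 28 for the 42 tested genes, nuclear and cytoplasmic RNA in separate panels (1 bar per gene, orange for the ATF4 program, blue for the ER branch). All 25 orange bars are above 0 in both panels, up to 19.7-fold for DDIT3 in cytoplasmic RNA, while the blue bars lie on both sides of 0.

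Other single cultures of the knockout lines also moved the program together. In AGO1 knockout passage 8, 24 of 25 genes were the highest of their group in cytoplasmic RNA and 19 of 25 in nuclear RNA, against 42.4% and 16.3% of all genes. In AGO1/2/3 knockout passage 12, all 25 were the lowest of their group in nuclear RNA and 21 of 25 in cytoplasmic RNA, against 38.3% and 23.3% of all genes. The level of the ATF4 program therefore varied between cultures of 1 genotype, and the spread given with each fold change below contains that variation.

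Fold changes are log2 values with their standard errors from edgeR's quasi-likelihood test on estimated reads, and a gene is said to have risen or fallen where its Benjamini-Hochberg adjusted p over all genes tested was at most 0.05. All adjusted p-values below are from this test. In nuclear RNA the number of genes that rose grew with the removal of passage 29 in every line. The choice of that library favours this direction for the ATF4 program. In AGO1 knockout cells 4 of 42 rose and 2 fell, beside 14.3% and 15.6% of all genes. Without passage 29, 8 rose and the other 34 did not pass, beside 14.2% higher and 13.7% lower among all genes. In AGO2 knockout cells 11 rose and 1 fell (20.2% and 19.9% of all genes), and 22 rose without passage 29 (22.4%, with 17.8% lower). In AGO1/2 knockout cells 17 rose and 3 fell (32.9% and 34.7%), and 29 rose without passage 29 (34.2%, with 32.6% lower). In AGO1/2/3 knockout cells 19 rose (29.1%, with 29.5% lower), and 39 of the 42 rose without passage 29 (31.3%, with 28.6% lower). The median of the 42 genes in nuclear AGO1/2/3 knockout RNA was 0.33 with all libraries and 0.81 without passage 29, against medians of -0.03 and 0.00 over all genes.

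In cytoplasmic RNA members were called in both directions. In AGO1 knockout cells 1 of 42 rose and 1 fell, beside 4.28% and 8.13% of all genes, and 1 rose and 1 fell without passage 29 (4.13% and 6.04%). ATF5 was the gene that rose in both cases, while the gene that fell was HSPA5 with all libraries (-0.31, adjusted p = 0.0391) and MANF, a secreted ER factor, without passage 29 (-0.28, adjusted p = 0.0463). In AGO2 knockout cells 1 rose and 1 fell (7.07% and 9%), and 1 rose without passage 29 (8.06%, with 7.4% lower). In AGO1/2 knockout cells 8 rose and 13 fell (23.9% and 25.4%), and 9 rose and 9 fell without passage 29 (25.5% and 25%). In AGO1/2/3 knockout cells 7 rose and 4 fell (18.6% and 20%), and 14 rose and 2 fell without passage 29 (22.2% and 21.9%). Medians over the 42 genes in AGO1/2 and AGO1/2/3 knockout cytoplasm were -0.44 and -0.14 with all libraries and -0.03 and 0.23 without passage 29.

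These directions depend on the scale. On TPM, which divides by transcript length and by the library total, limma on log2(TPM + 1) shifted the median of all genes by -0.17 to -0.07 in the nuclear comparisons and by -0.20 to -0.08 in the cytoplasmic ones, so that more genes were lower. By that test, nuclear members rose and fell in the numbers 1 and 9 in AGO1 knockout cells (1.91% and 30.5% of all genes), 2 and 4 in AGO2 knockout cells (3.59% and 33.4%), 16 and 3 in AGO1/2 knockout cells (26.1% and 35.1%) and 15 and 1 in AGO1/2/3 knockout cells (14.3% and 39.6%). In cytoplasmic RNA they were 1 and 3 in AGO1 knockout cells (1.35% and 17.1%), 0 and 11 in AGO2 knockout cells (1.73% and 27.2%), 1 and 24 in AGO1/2 knockout cells (7.7% and 49.9%) and 1 and 12 in AGO1/2/3 knockout cells (8.11% and 37.8%). The levels printed below are TPM and the fold changes are from reads, and where the signs differ this is said.

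**Figure D2:**
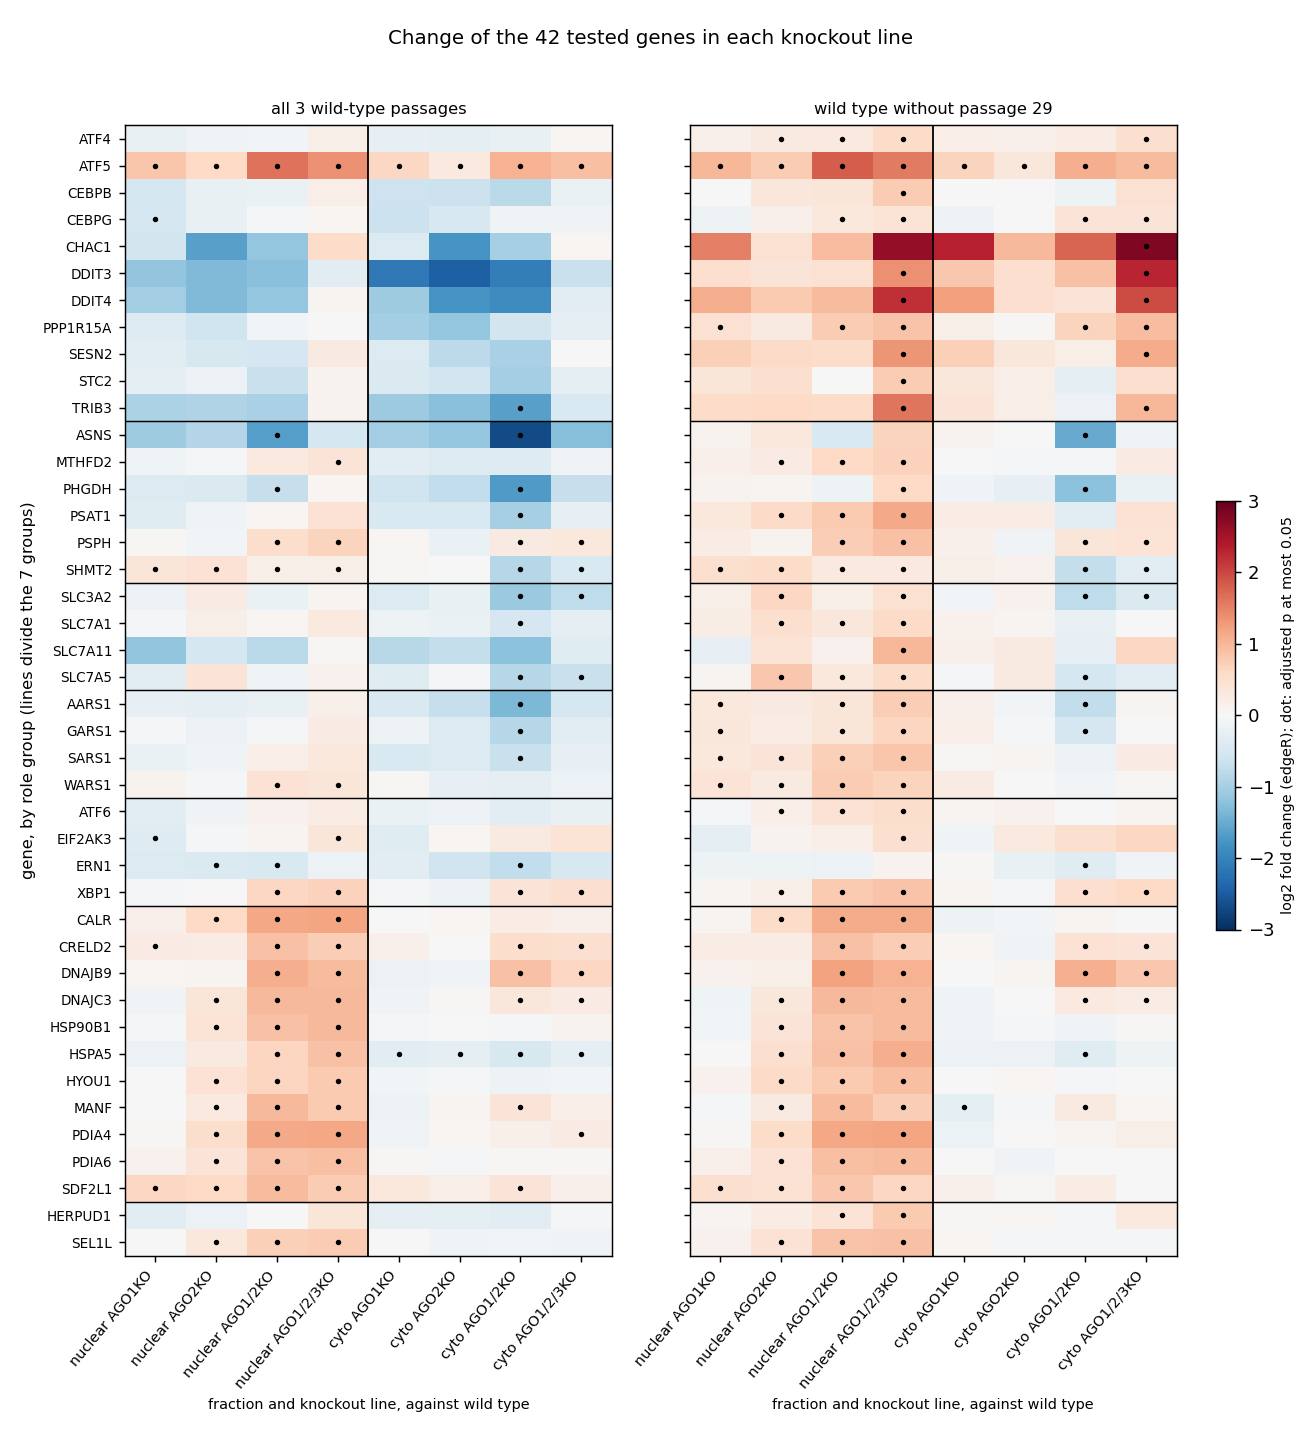
Log2 fold change from wild type of the 42 tested genes (rows, by role) in 4 knockout lines and both fractions (columns), with all 3 wild-type libraries on the left and without passage 29 on the right. Colour runs from -3 to 3 and a dot marks an adjusted p of at most 0.05. Chaperone rows are red in nuclear AGO1/2 and AGO1/2/3 knockout columns on both sides, whereas the rows of the ATF4 program turn from mixed to red in nuclear AGO1/2/3 knockout RNA (5 and 23 dots of 25).

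ATF4 (ENSG00000128272, chr22:39519695-39522683 on the plus strand of GRCh38) was among the most abundant of these RNAs. In nuclear RNA it was at 103, 106 and 175 TPM in wild-type passages 27, 28 and 29, at 128, 122 and 120 TPM in AGO1/2 knockout cells and at 140, 108 and 136 TPM in AGO1/2/3 knockout cells. The single knockouts gave 94.1, 88.8 and 97.2 TPM (AGO1) and 106, 95.9 and 104 TPM (AGO2). In cytoplasmic RNA it was at 189, 194 and 358 TPM in wild type, at 165, 143 and 179 TPM in AGO1/2 knockout cells and at 229, 185 and 239 TPM in AGO1/2/3 knockout cells. There the single knockouts gave 164, 166 and 248 TPM (AGO1) and 180, 165 and 177 TPM (AGO2). In both fractions the AGO1/2/3 knockout values overlapped the wild-type range, and wild-type passage 29 was the highest library of all groups. ATF4 passed the test in no line (AGO1/2/3 knockout 0.19 ± 0.17 nuclear, adjusted p = 0.379, and 0.05 ± 0.23 cytoplasmic, adjusted p = 0.894). Without passage 29 it rose in AGO1/2/3 knockout cells by 0.56 ± 0.09 in nuclear RNA (adjusted p = 5.83e-05) and by 0.49 ± 0.15 in cytoplasmic RNA (adjusted p = 0.0183), and in nuclear AGO2 and AGO1/2 knockout RNA by 0.28 and 0.30.

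The downstream regulators showed the same pattern with wider swings. DDIT3 was at 6.72, 7.54 and 53.2 TPM in nuclear wild-type RNA, at 10.7, 8.39 and 10 TPM in AGO1/2 knockout RNA and at 22.6, 8.42 and 17.6 TPM in AGO1/2/3 knockout RNA. AGO1 and AGO2 knockout nuclei gave 6.92, 6.91 and 11.2 TPM and 8.06, 6.64 and 8.45 TPM of DDIT3. In cytoplasmic RNA it was at 4.5, 4.45 and 88.4 TPM in wild type, 3, 3.89 and 14.1 TPM in AGO1 knockout cells, 4.98, 4.37 and 6.58 TPM in AGO2 knockout cells, 5.92, 4.46 and 7.88 TPM in AGO1/2 knockout cells, and 26.9, 6.56 and 20.3 TPM in AGO1/2/3 knockout cells. The AGO1/2/3 knockout values lay above passages 27 and 28 and below passage 29 in both fractions, with passage 12 closest to the former. DDIT3 changed by -0.33 ± 0.58 in nuclear AGO1/2/3 knockout RNA with all libraries (adjusted p = 0.649) and by 1.38 ± 0.33 without passage 29 (adjusted p = 0.00196). In cytoplasmic RNA the values were -0.68 ± 0.90 (adjusted p = 0.591) and 2.29 ± 0.65 (adjusted p = 0.0102). In the other 3 lines DDIT3 did not pass in either fraction, with or without passage 29. DDIT3 shares 355 exonic bases with MARS1 on the opposite strand, and the strand setting of the quantification was not given in the sources used here, so reads of the pair cannot be told apart where they overlap.

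**Figure D3:**
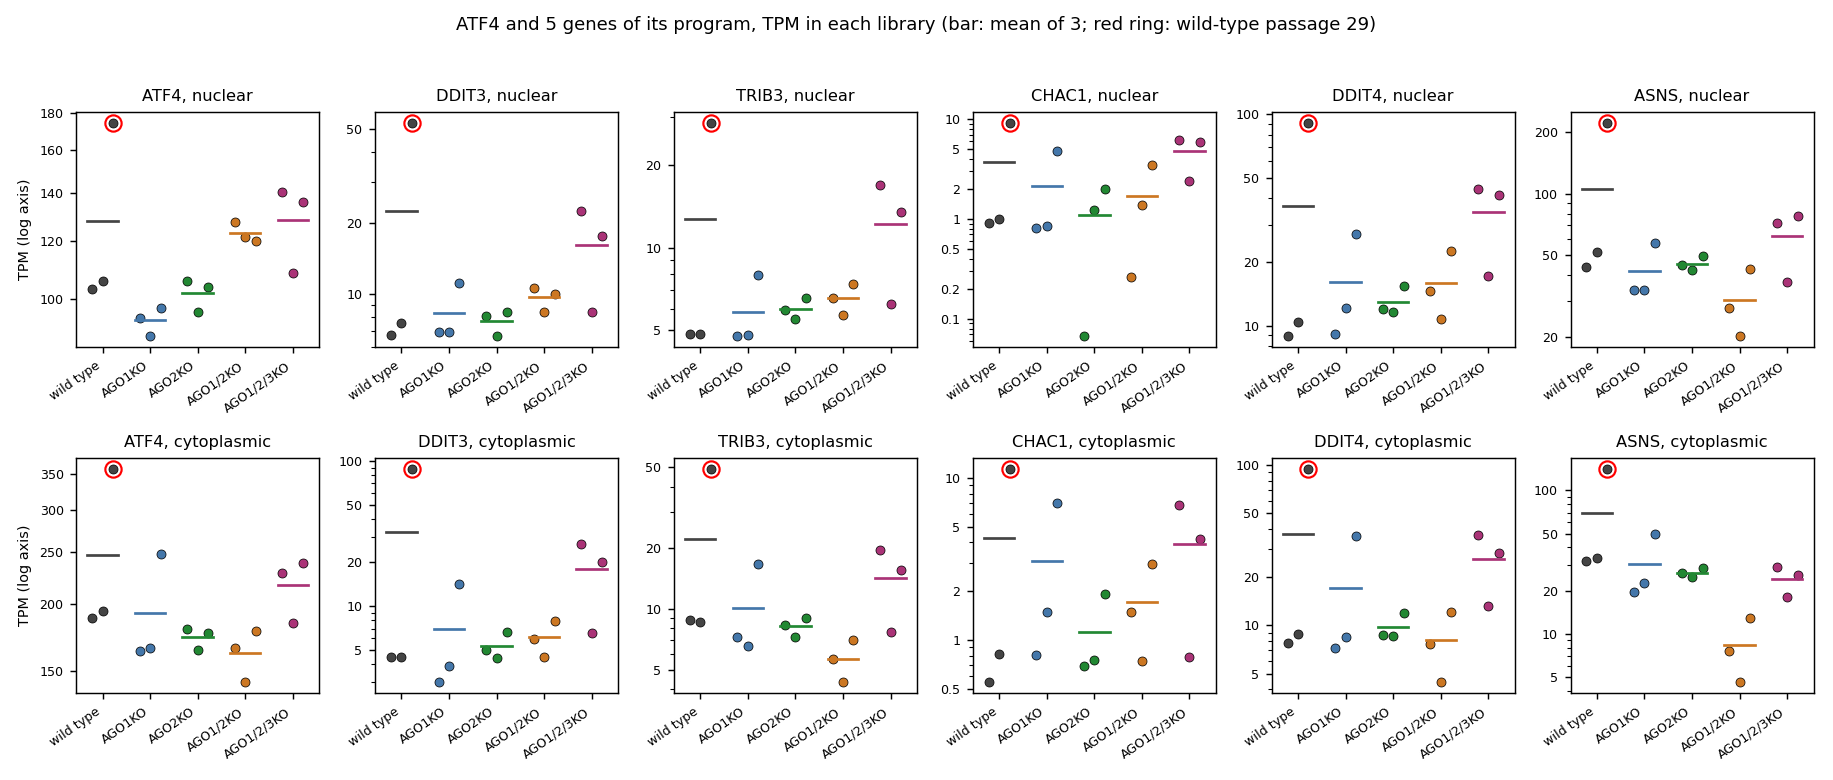
TPM of ATF4, DDIT3, TRIB3, CHAC1, DDIT4 and ASNS in each library (log axis), nuclear and cytoplasmic RNA, by genotype (bar, mean of 3 libraries; red ring, wild-type passage 29). The ringed point is the highest of the 15 in every panel, for example 88.4 TPM for cytoplasmic DDIT3 against 4.5 and 4.45 TPM in the other wild-type passages.

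TRIB3 was at 4.83, 4.84 and 28.5 TPM in nuclear wild-type RNA, 4.76, 4.81 and 7.95 TPM in AGO1, 5.92, 5.5 and 6.58 TPM in AGO2, 6.55, 5.69 and 7.38 TPM in AGO1/2 and 16.9, 6.24 and 13.5 TPM in AGO1/2/3 knockout RNA. In cytoplasmic RNA it was at 8.78, 8.63 and 49.2 TPM in wild type, at 7.21, 6.54 and 16.6 TPM in AGO1 and 8.29, 7.27 and 9.03 TPM in AGO2 knockout cells, at 5.64, 4.35 and 7.03 TPM in AGO1/2 knockout cells and at 19.5, 7.64 and 15.5 TPM in AGO1/2/3 knockout cells. All 3 cytoplasmic AGO1/2 knockout values were below all wild-type values, and the AGO1/2/3 knockout values overlapped them. TRIB3 fell in cytoplasmic AGO1/2 knockout RNA by 1.63 ± 0.60 on the log2 scale (adjusted p = 0.0358), a call that was lost without passage 29 (-0.17 ± 0.38, adjusted p = 0.741). Without passage 29 it rose in AGO1/2/3 knockout RNA, by 1.61 ± 0.33 in the nucleus (adjusted p = 0.000551) and by 1.01 ± 0.39 in the cytoplasm (adjusted p = 0.0498), and neither rise was present with all libraries (0.10 and -0.45). DDIT4 went from 0.09 to 2.20 in nuclear AGO1/2/3 knockout RNA (adjusted p = 0.00085 without passage 29) and from -0.33 to 1.95 in the cytoplasm (adjusted p = 0.0226). CHAC1 went from 0.54 to 2.63 (adjusted p = 0.0503) and from 0.06 to 2.80 (adjusted p = 0.0446). SESN2, a leucine sensor that restrains mTORC1, went from 0.27 to 1.33 and from -0.01 to 1.12, and PPP1R15A (GADD34), which directs eIF2 dephosphorylation, from 0.01 to 0.86 and from -0.29 to 0.92. All 4 of the latter values without passage 29 passed the test. The C/EBP transcription factors CEBPB and CEBPG, dimer partners of ATF4 and DDIT3, and the secreted hormone STC2 rose in nuclear AGO1/2/3 knockout RNA when passage 29 was left out, by 0.76, 0.42 and 0.77, and did not pass with it.

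ATF5 behaved differently from the other regulators. ATF5 (ENSG00000169136, chr19:49928702-49933935 on the plus strand of GRCh38) is a transcription factor that, like ATF4, is translated when eIF2 is phosphorylated and is also tied to the mitochondrial stress response. In nuclear RNA it was at 5.58, 5.6 and 6.93 TPM in wild type, 9.55, 8.56 and 8.29 TPM in AGO1 knockout cells, 7.78, 7.41 and 6.44 TPM in AGO2 knockout cells, 18, 19.1 and 15.6 TPM in AGO1/2 knockout cells and 13.3, 11.9 and 13.4 TPM in AGO1/2/3 knockout cells. In cytoplasmic RNA it was at 8.28, 8.71 and 8.71 TPM in wild type, 12.4, 10.9 and 11.8 TPM in AGO1 knockout cells, 9.98, 8.07 and 7.7 TPM in AGO2 knockout cells, 13.5, 12.8 and 12.7 TPM in AGO1/2 knockout cells, and 13.3, 13.9 and 12.7 TPM in AGO1/2/3 knockout cells. In both fractions the AGO1, AGO1/2 and AGO1/2/3 knockout values were all above all wild-type values, while the AGO2 knockout values overlapped them. ATF5 was the one gene of the 43 that rose in all 4 lines and both fractions. By limma on TPM it was not called in nuclear AGO2 knockout RNA, where the only members called higher were chaperones. In nuclear RNA it rose by 0.84 ± 0.10 in AGO1, 0.59 ± 0.10 in AGO2, 1.63 ± 0.10 in AGO1/2 and 1.37 ± 0.10 in AGO1/2/3 knockout cells, with adjusted p-values of 5.02e-05, 0.00042, 3.19e-09 and 3e-08. In cytoplasmic RNA the rises were 0.62, 0.28, 1.03 and 0.89 (adjusted p = 0.000466, 0.0439, 3.91e-07 and 2.44e-06), and on TPM the AGO2 knockout value was -0.01. The cytoplasmic AGO2 knockout call was lost in the fit of the compared groups alone (0.27), on length-scaled counts (0.24), and without AGO2 knockout passage 8 (0.19) or 9 (0.32) or wild-type passage 27 (0.23) or 28 (0.29), the change being positive in each. All 8 calls were kept without passage 29, where ATF5 was only 1.24-fold (nuclear) and 1.03-fold (cytoplasmic) above the other wild-type passages. The gene shares 565 exonic bases with NUP62 on the opposite strand, for which the nuclear changes were 0.34, 0.24, 0.52 and 0.27 and the cytoplasmic ones 0.15, 0.01, 0.00 and -0.09 in the same order of lines.

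Of the 6 genes for asparagine, serine and folate-cycle enzymes, 4 fell and 1 rose in the cytoplasm of AGO1/2 knockout cells, beside 25.4% and 23.9% of all genes. ASNS (ENSG00000070669, chr7:97851677-97872542 on the minus strand of GRCh38), which makes asparagine from aspartate, was at 32.2, 33.8 and 142 TPM in cytoplasmic wild-type RNA, 7.62, 4.61 and 12.9 TPM in AGO1/2 knockout RNA and 29.1, 18.1 and 25.6 TPM in AGO1/2/3 knockout RNA. AGO1 knockout cytoplasm gave 19.7, 22.5 and 50 TPM and AGO2 knockout cytoplasm 26.4, 24.7 and 28.7 TPM of ASNS. In nuclear RNA it was at 43.7, 51.9 and 222 TPM in wild type, 33.7, 34 and 57.7 TPM in AGO1 knockout cells, 45, 42.1 and 49.6 TPM in AGO2 knockout cells, 27.5, 20.1 and 42.8 TPM in AGO1/2 knockout cells and 71.7, 37 and 77.7 TPM in AGO1/2/3 knockout cells. The AGO1/2 knockout values were below all wild-type values in both fractions. ASNS fell in cytoplasmic AGO1/2 knockout RNA by 2.68 ± 0.56 on the log2 scale (adjusted p = 0.00109), and by 1.52 ± 0.37 without passage 29 (adjusted p = 0.00313). The nuclear fall of 1.66 ± 0.50 (adjusted p = 0.0089) was lost without passage 29 (-0.45, adjusted p = 0.207).

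PHGDH, the first enzyme of serine synthesis, was at 26, 27.8 and 53.3 TPM in cytoplasmic wild-type RNA and at 8.12, 6.1 and 11.5 TPM in AGO1/2 knockout RNA, without overlap. The other lines gave 17.1, 18.2 and 28.9 TPM (AGO1), 18.3, 17.5 and 19.4 TPM (AGO2) and 21.5, 17.7 and 19.1 TPM (AGO1/2/3), with overlap in AGO1 knockout cells alone. PHGDH fell in AGO1/2 knockout cytoplasm by 1.71 ± 0.30 on the log2 scale (adjusted p = 0.000253), and by 1.22 without passage 29 (adjusted p = 0.000384). PSAT1, the next enzyme of the pathway, was at 45.3, 45.9 and 114 TPM in wild type and at 26.4, 20 and 32.6 TPM in AGO1/2 knockout cells. It was at 37.3, 37.1 and 66.5 TPM in AGO1, 46.5, 41.4 and 42.2 TPM in AGO2 and 56.1, 41.7 and 49.5 TPM in AGO1/2/3 knockout cells, all overlapping wild type. Its change of -1.01 ± 0.33 in AGO1/2 knockout cells (adjusted p = 0.0217) became -0.33 without passage 29 (adjusted p = 0.217), although the values did not overlap. PSPH, which completes the pathway, rose on reads instead. The rises were 0.27 and 0.32 in cytoplasmic and 0.54 and 0.68 in nuclear RNA of the AGO1/2 and the AGO1/2/3 knockout line. On TPM, none of the 6 enzyme genes had all 3 cytoplasmic values above all wild-type values in either line. All 3 were below for 5 genes in AGO1/2 and for 3 in AGO1/2/3 knockout cytoplasm, beside 48.6% and 39.5% of all genes.

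SHMT2, the mitochondrial enzyme that passes a carbon unit from serine to folate, separated the fractions. It was at 84.5, 83.6 and 99.5 TPM in cytoplasmic wild-type RNA, 35.3, 30.3 and 40.9 TPM in AGO1/2 knockout RNA and 56.9, 54.2 and 51.5 TPM in AGO1/2/3 knockout RNA. Neither set of knockout values overlapped wild type. SHMT2 fell in the cytoplasm by 0.85 ± 0.09 (AGO1/2, adjusted p = 4.3e-06) and by 0.45 ± 0.09 (AGO1/2/3, adjusted p = 0.00166) on the log2 scale, and by 0.72 and 0.31 without passage 29. In nuclear RNA it rose in all 4 lines, by 0.37 in AGO1, 0.43 in AGO2, 0.17 in AGO1/2 and 0.19 in AGO1/2/3 knockout cells, although the last was not seen on TPM (71.8, 69.1 and 75.9 against 76.6, 71.7 and 81.1 TPM in wild type). MTHFD2, its partner in the mitochondrial folate cycle, rose in nuclear AGO1/2/3 knockout RNA by 0.40 ± 0.14 (adjusted p = 0.0269).

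The element to which ATF4 and a C/EBP partner bind, here spelled TGATGNAAN and searched on both strands, was found in the 300 bases around the start (250 before, 50 after) of 6 of the 40 members with a RefSeq promoter (GRCh38.p14). It was found in 3.61% of 35116 RefSeq promoters of that length. The 6 were AARS1, ASNS, CHAC1, HERPUD1, SLC3A2 and SLC7A1. ASNS, AARS1 and CHAC1 are shown as examples from asparagine synthesis, tRNA charging and the stress regulators, with the element in capitals and reading along the gene's strand. ASNS carries it on chr7:97872457-97872486 (minus strand), starting 68 bases before the transcription start. AARS1 carries it on chr16:70289675-70289704 (minus strand, 188 bases before) and CHAC1 on chr15:40953251-40953280 (plus strand, 210 bases before), both in reverse orientation.
ASNS: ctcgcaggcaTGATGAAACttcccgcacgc
AARS1: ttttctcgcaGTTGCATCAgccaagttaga
CHAC1: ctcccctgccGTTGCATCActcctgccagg
The element was first described in some of these genes, so the matches describe the sequences and say nothing of binding in these cells.

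Of the 8 genes for transporters and tRNA synthetases, 6 fell in the cytoplasm of AGO1/2 knockout cells, beside 25.4% of all genes. SLC3A2, the heavy chain shared by several amino acid exchangers, was at 77.6, 78.2 and 132 TPM in cytoplasmic wild-type RNA, 31.8, 28.6 and 35.4 TPM in AGO1/2 knockout RNA, and 49.8, 39.7 and 49.5 TPM in AGO1/2/3 knockout RNA. It was at 56.8, 55.5 and 74.6 TPM in AGO1 and 70.7, 60.7 and 63.2 TPM in AGO2 knockout RNA. All 4 lines lay below wild type without overlap. SLC3A2 fell by 1.11 ± 0.20 on the log2 scale in AGO1/2 (adjusted p = 0.000359) and by 0.77 ± 0.20 (adjusted p = 0.00677) in AGO1/2/3 knockout cells, and still fell without passage 29 by 0.76 and 0.42. Its light chain SLC7A5, the leucine carrier LAT1, fell by 0.86 and 0.66, and by 0.54 in AGO1/2 knockout cells without passage 29, when the AGO1/2/3 knockout value did not pass (-0.34, adjusted p = 0.0793). The cystine carrier SLC7A11 did not pass in either line (-1.23 ± 0.53 and -0.36 ± 0.52). The arginine carrier SLC7A1 fell in AGO1/2 knockout cytoplasm by 0.50 ± 0.17 (adjusted p = 0.0287), a call lost without passage 29 (-0.22, adjusted p = 0.186).

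AARS1, which charges the alanine tRNA, was at 41.9, 43.9 and 99.5 TPM in cytoplasmic wild-type RNA and at 19, 13.6 and 23.1 TPM in AGO1/2 knockout RNA, without overlap. The other lines gave 34.5, 35.5 and 54 TPM (AGO1), 34.8, 30.9 and 34 TPM (AGO2) and 41.9, 34.9 and 34.3 TPM (AGO1/2/3). AARS1 fell in AGO1/2 knockout cytoplasm by 1.36 ± 0.31 on the log2 scale (adjusted p = 0.00192), and by 0.75 without passage 29 (adjusted p = 0.0036). The glycyl enzyme GARS1 fell by 0.86 (adjusted p = 0.00232) and by 0.51 without passage 29. The seryl enzyme SARS1 fell by 0.66 (adjusted p = 0.0322), which was lost without passage 29 (-0.17, adjusted p = 0.282), and the tryptophanyl enzyme WARS1 did not pass (-0.30 ± 0.12, adjusted p = 0.0562). In nuclear RNA WARS1 rose by 0.44 in AGO1/2 and by 0.36 in AGO1/2/3 knockout cells. Counted over the whole ATF4 program, 2 of 25 genes rose and 11 fell in cytoplasmic AGO1/2 knockout RNA (median -0.86), beside 23.9% and 25.4% of all genes, and 4 rose and 7 fell without passage 29 (median -0.17), beside 25.5% and 25%. All 3 TPM values of the line were below all 3 wild-type values for 17 of the 25 genes, beside 48.6% of all genes. In AGO1/2/3 knockout cytoplasm that held for 9 of the 25, beside 39.5% of all genes.

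The RNAs of the sensors were at low levels. ERN1 (IRE1) was at 2.58, 2.48 and 4.66 TPM in cytoplasmic wild-type RNA and at 1.26, 1.45 and 1.42 TPM in AGO1/2 knockout RNA, without overlap. It fell there by 0.73 ± 0.19 on the log2 scale (adjusted p = 0.00611), and by 0.36 without passage 29 (adjusted p = 0.0169). In nuclear RNA ERN1 fell by 0.44 ± 0.16 in AGO2 (adjusted p = 0.0344) and by 0.46 ± 0.15 in AGO1/2 knockout cells (adjusted p = 0.0166), calls that were lost without passage 29 (-0.16 and -0.17). EIF2AK3 (PERK) fell in nuclear AGO1 knockout RNA by 0.38 ± 0.12 (adjusted p = 0.022), which was lost without passage 29 (-0.27, adjusted p = 0.102). EIF2AK3 rose in nuclear AGO1/2/3 knockout RNA by 0.36 ± 0.11 (adjusted p = 0.0123), and ATF6 passed there only without passage 29 (0.52 ± 0.05, adjusted p = 5.61e-07).

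XBP1, the transcription factor whose RNA IRE1 splices, was at 21, 20.2 and 24.4 TPM in nuclear wild-type RNA, 34, 30.3 and 33.6 TPM in AGO1/2 knockout RNA and 30, 27.9 and 30.2 TPM in AGO1/2/3 knockout RNA, without overlap in either line. It was at 17.9, 16.6 and 17.5 TPM in AGO1 and 18.4, 18 and 18 TPM in AGO2 knockout nuclei, below all wild-type values. XBP1 rose in the nuclei of both multiple-knockout lines by 0.63 ± 0.09 (adjusted p = 2.05e-05) and by 0.69 ± 0.09 (adjusted p = 1.08e-05). In cytoplasmic RNA XBP1 was at 23.6, 23 and 26.6 TPM in wild type, 20.2, 20 and 24.2 TPM in AGO1 knockout cells, 19.1, 18.1 and 18.6 TPM in AGO2 knockout cells, 24.2, 20.6 and 26.7 TPM in AGO1/2 knockout cells and 29.2, 26.2 and 30.7 TPM in AGO1/2/3 knockout cells, with overlap in every line but AGO2 knockout. The read-based rises in the multiple knockouts of 0.38 ± 0.10 (adjusted p = 0.00607) and 0.49 ± 0.10 (adjusted p = 0.00154) were kept without passage 29, but the first was -0.04 on TPM.

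IRE1 removes a segment of 26 bases from XBP1 RNA, and the transcript without it encodes the active factor. The segment lies in exonic sequence at chr22:28796128-28796153 (GRCh38, minus strand), bases 566 to 591 of the unspliced transcript. It is shown in capitals with the bases on either side, since its removal makes the spliced form (7 placements of the gap give the same spliced sequence).
XBP1: ccGCAGCACTCAGACTACGTGCACCTCTgc
The annotated transcript lacking this segment, XBP1-202, was listed at 0 in all 30 libraries. Reads on XBP1 numbered 958 to 3556 in nuclear and 2129 to 6303 in cytoplasmic libraries. A limit of 3 reads amounts to 0.0844 to 0.313% and 0.0476 to 0.141% of all these reads, for counting error only. Only reads over the segment, or over another difference between the transcripts, can tell the forms apart. These percentages are therefore no upper limit on the spliced share. An estimate of 0 for a transcript that shares most of its sequence with another can also come from the assignment of shared reads. XBP1-202 is 1791 and XBP1-201 1850 bases long, so these annotated transcripts differ by more than the segment. Reads across the junction were not analysed here. The unspliced transcript XBP1-201 held 69.5 to 87.8% of XBP1 TPM in nuclear and 97.1 to 99.2% in cytoplasmic libraries.

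ER chaperones and folding factors rose together in the nuclear RNA of both multiple-knockout lines. All 11 rose in AGO1/2 (median 0.95, from 0.65 to 1.16) and in AGO1/2/3 knockout cells (median 0.90, from 0.74 to 1.18), beside 32.9% and 29.1% of all genes. In AGO2 knockout cells 8 of the 11 rose (median of the 11, 0.39), beside 20.2% of all genes. On TPM limma called only 2 of the 11 higher in AGO2 knockout cells, beside 3.59% of all genes. The TPM of all 3 libraries exceeded all 3 wild-type values for 11 of 11 chaperones in AGO1/2 and 10 of 11 in AGO1/2/3 knockout cells, beside 25.9% and 16.5% of all genes. Limma on TPM also called all 11 higher in AGO1/2 as well as AGO1/2/3 knockout cells (medians 0.84 and 0.60), beside 26.1% and 14.3% of all genes. All 22 calls were kept without passage 29.

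HSPA5 (BiP, ENSG00000044574, chr9:125234853-125241382 on the minus strand of GRCh38), the main ER chaperone and the protein that holds the sensors inactive, was at 170, 152 and 205 TPM in nuclear wild-type RNA, 295, 265 and 265 TPM in AGO1/2 knockout RNA and 294, 277 and 267 TPM in AGO1/2/3 knockout RNA. These knockout values lay above wild type without overlap. AGO1 knockout nuclei gave 140, 126 and 132 TPM, below wild type, and AGO2 knockout nuclei 205, 176 and 161 TPM. In AGO1/2 and AGO1/2/3 knockout nuclei HSPA5 rose by 0.65 ± 0.11 (adjusted p = 0.000124) and 0.88 ± 0.11 (adjusted p = 1.05e-05), and by 0.87 and 1.09 without passage 29. In cytoplasmic RNA it was at 139, 140 and 160 TPM in wild type and lower in every knockout library, at 109, 103 and 111 TPM in AGO1, 110, 97.2 and 98.6 TPM in AGO2, 80.8, 67.4 and 88.9 TPM in AGO1/2 and 99.4, 102 and 107 TPM in AGO1/2/3 knockout cells. HSPA5 fell in the cytoplasm of all 4 lines, by 0.31, 0.29, 0.49 and 0.27 on the log2 scale (adjusted p = 0.0391, 0.0405, 0.000468 and 0.0308), and without passage 29 only the fall of 0.36 in AGO1/2 knockout cells passed (adjusted p = 0.000818).

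CALR, a lectin chaperone of glycoproteins, was at 287, 249 and 201 TPM in nuclear wild-type RNA, 248, 226 and 218 TPM in AGO1, 339, 312 and 285 TPM in AGO2, 573, 547 and 483 TPM in AGO1/2 and 497, 480 and 427 TPM in AGO1/2/3 knockout RNA. The multiple-knockout values did not overlap wild type. CALR rose by 0.60 ± 0.08 in AGO2, 1.16 ± 0.08 in AGO1/2 and 1.18 ± 0.08 in AGO1/2/3 knockout nuclei (adjusted p = 6.19e-05, 1.22e-08 and 1.76e-08). PDIA4, a disulfide isomerase, went from 84.2, 77.6 and 70.5 TPM in nuclear wild-type RNA to 173, 159 and 157 TPM in AGO1/2 and 146, 152 and 140 TPM in AGO1/2/3 knockout RNA, and rose by 1.13 ± 0.06 and 1.17 ± 0.06 (adjusted p = 1.01e-09 and 1.22e-09). PDIA4 was at 70.6, 65.5 and 62.6 TPM in AGO1 and 100, 91.6 and 85.2 TPM in AGO2 knockout nuclei.

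DNAJB9, a J-domain co-chaperone that recruits HSPA5 to IRE1, went from 4.15, 5.15 and 4.54 TPM to 9.45, 8.99 and 8.68 TPM in AGO1/2 and 6.8, 7.67 and 7.56 TPM in AGO1/2/3 knockout nuclei, rises of 1.10 ± 0.11 and 0.95 ± 0.11 (adjusted p = 4.23e-07 and 2.89e-06). It was at 4.08, 4.66 and 3.91 TPM in AGO1 and 3.83, 4 and 4.02 TPM in AGO2 knockout nuclei. In the cytoplasm DNAJB9 was at 3.65, 4.47 and 4.82 TPM in wild type and at 4.11, 4.39 and 6.78 TPM in AGO1/2 knockout cells, with overlap. The read-based rise of 0.89 ± 0.11 there (adjusted p = 1.34e-05) was not matched on TPM, where limma gave 0.18.

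The remaining chaperones rose in nuclear AGO1/2 and AGO1/2/3 knockout RNA by similar amounts. The HSP90 family member HSP90B1 (GRP94) rose by 0.88 and 0.98, the co-chaperone DNAJC3 by 0.98 and 0.96, the isomerase PDIA6 by 0.85 and 0.90, the nucleotide exchange factor HYOU1 by 0.65 and 0.79, and SDF2L1 by 0.95 and 0.75. The secreted ER factors CRELD2 and MANF rose by 0.88 and 0.74, and by 0.98 and 0.79. SDF2L1 and CRELD2 also rose in AGO1 knockout nuclei (0.63 and 0.24), the latter call being lost without passage 29 (0.23, adjusted p = 0.1). In ER-associated degradation, the adaptor SEL1L rose by 0.72 and 0.75, and HERPUD1, a membrane component of the same machinery, did not pass with all libraries (-0.00 and 0.37) but rose without passage 29 (0.42 and 0.79). In cytoplasmic RNA 5 of the 11 chaperones rose and 1 fell in AGO1/2 knockout cells (median 0.22, beside 23.9% and 25.4% of all genes), and 4 rose and 1 fell in AGO1/2/3 knockout cells (median 0.16, beside 18.6% and 20%). On TPM limma called no chaperone higher and 4 and 2 lower (7.7% higher and 49.9% lower of all genes in AGO1/2, 8.11% and 37.8% in AGO1/2/3 knockout cells).

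**Figure D4:**
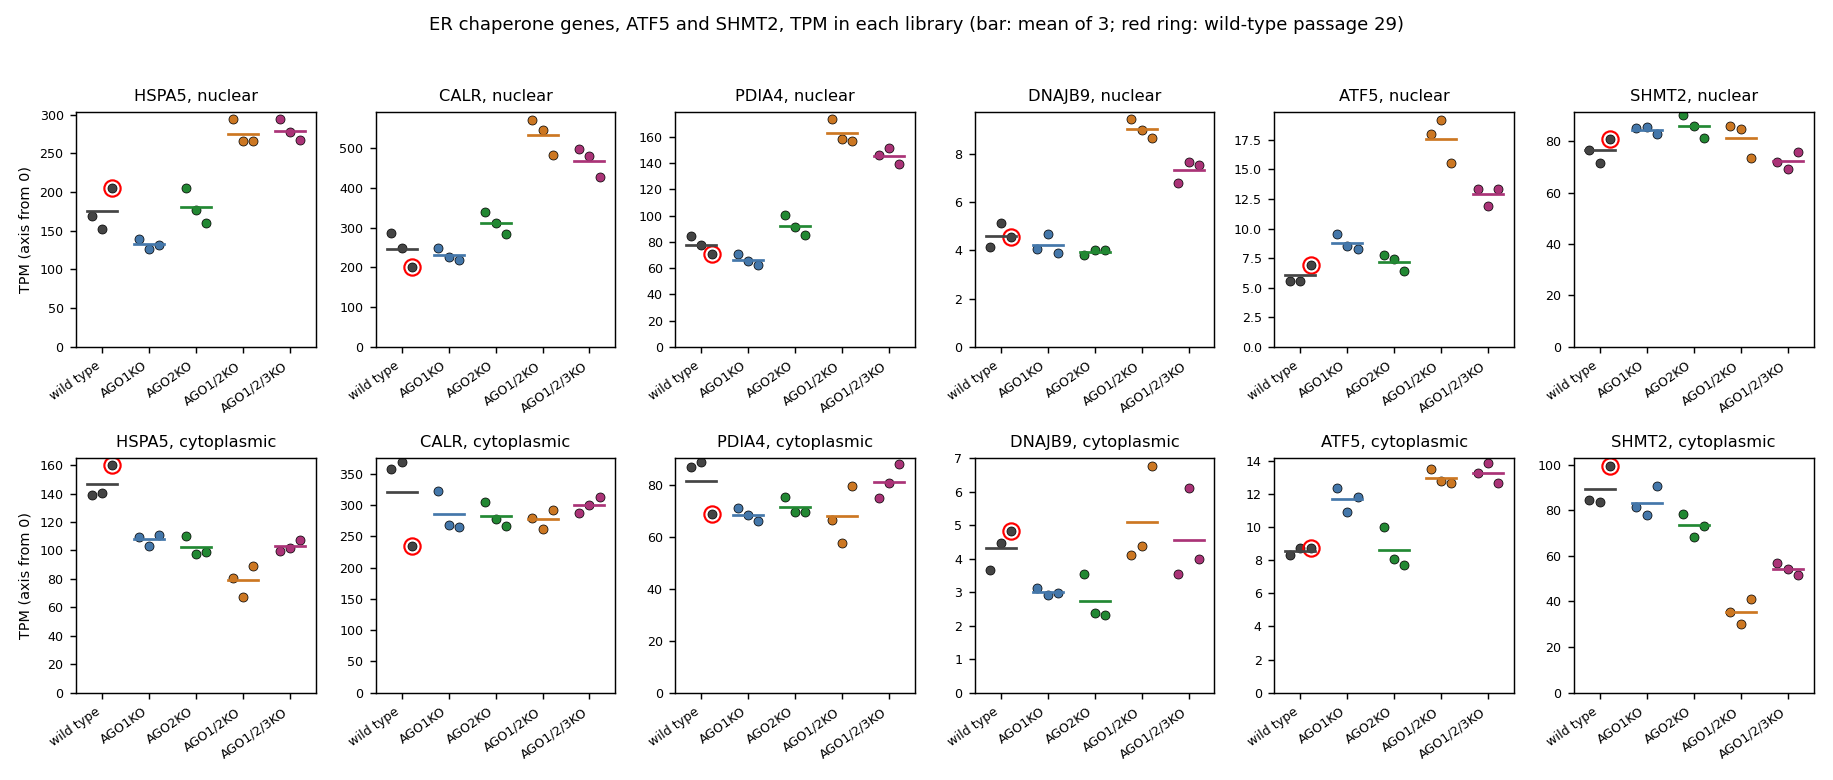
TPM of HSPA5, CALR, PDIA4, DNAJB9, ATF5 and SHMT2 in each library (linear axis from 0), nuclear and cytoplasmic RNA, by genotype (bar, mean of 3 libraries; red ring, wild-type passage 29). Nuclear HSPA5 lies at 265 to 295 TPM in AGO1/2 knockout cells above all wild-type values (152 to 205 TPM), while in the cytoplasm it lies at 67.4 to 88.9 TPM, below all of them (139 to 160 TPM).

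Several marker RNAs outside these pathways moved with the nuclear chaperones. In nuclear AGO1/2 and AGO1/2/3 knockout RNA, GAPDH rose by 1.11 and 0.91, ACTB by 1.17 and 0.86, KRT8 by 1.34 and 1.22 and KRT19 by 1.38 and 1.37, while the nuclear RNAs MALAT1 (-1.18 and -0.95) and NEAT1 (-1.27 and -0.71) fell. The summed TPM of the 5 epithelial markers was 1150 to 1253 in nuclear wild-type RNA, 2596 to 2771 in AGO1/2 and 2011 to 2360 in AGO1/2/3 knockout RNA, although CDH1 alone was lower (-2.18 and -1.49). In the nuclei of AGO1 and AGO2 knockout cells GAPDH rose by 0.60 in each line. In the cytoplasm GAPDH changed by 0.03 and 0.24 and KRT8 by 0.05 and 0.40. The part of nuclear purity, or of cytoplasmic RNA left with the nuclei, in the rise of the nuclear chaperones was not tested.

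The ER stress response element, CCAAT and CCACG with any 9 bases between them, was found on either strand of the promoters of CALR, CRELD2, HSP90B1, HSPA5 and XBP1, 5 of the 40 members with a promoter, and in 0.0769% of all promoters. Its shorter form, ATTGG and CCACG with any 1 base between them, was also searched on both strands and was found for HERPUD1, HYOU1 and SDF2L1 and in 0.0541% of all promoters. The windows of HSPA5, CALR, XBP1 and SDF2L1 are shown, with the element in capitals, because these members span the range of nuclear responses described above. They lie at chr9:125241385-125241414 (HSPA5, minus strand, 66 bases before the start), chr19:12938379-12938408 (CALR, plus strand, 225 bases before, reverse orientation), chr22:28800597-28800626 (XBP1, minus strand, 52 bases before) and chr22:21642105-21642134 (SDF2L1, plus strand, 188 bases before, reverse orientation).
HSPA5: cttcaCCAATCGGCGGCCTCCACGacgggg
CALR: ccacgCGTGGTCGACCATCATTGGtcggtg
XBP1: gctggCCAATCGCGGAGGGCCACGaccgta
SDF2L1: cctcggaagCGTGGACCAATcaaaaccctc
These elements were defined on several of the same promoters, so their presence is a description. A further element, TGACGTGG, was found only for HYOU1 among the members, where it overlaps a match to the shorter form, and in 0.729% of all promoters. PDIA4, DNAJB9, DNAJC3, PDIA6 and MANF, which rose by comparable amounts in the nucleus, had no match to these letters in the window searched.

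In wild-type cells several pathway RNAs were lower in the nucleus relative to other RNAs, a direction that depends on the scale. Nuclear against cytoplasmic wild-type RNA gave 18 of 42 members lower in the nucleus and no member higher (34.8% and 35.9% of all genes), by edgeR without pairing the passages, and 18 members were at an unadjusted p under 0.05. With passage as a replicate block, 32 were lower and 2 higher (41.3% and 40.3%), and without both passage 29 libraries 30 were lower and 3 higher (39.8% and 41.4%). On TPM, where the median of all genes moved by 0.33 towards the nucleus, limma called 8 lower and 6 higher (16.5% and 50.9%), and DESeq2 on reads called none higher. The largest differences were those of SDF2L1 (-1.88 ± 0.23, adjusted p = 0.000233), MANF (-1.50 ± 0.15, adjusted p = 8.21e-05), ATF4 (-1.40 ± 0.35, adjusted p = 0.00782), SLC7A5 (-1.36 ± 0.32, adjusted p = 0.00649) and MTHFD2 (-1.22 ± 0.28, adjusted p = 0.0058).

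The change from wild type itself differed between the fractions. The interaction of fraction and genotype was called for 10 members in AGO1/2 knockout cells, all of them with the more positive change in the nucleus, beside 13.5% of all genes in that direction and 13% in the other. In AGO1/2/3 knockout cells it was called for 10 members, all more positive in the nucleus, beside 10.3% and 6.64% of all genes. The members were ATF5, CALR, DNAJC3, HSP90B1, HSPA5, HYOU1, PDIA4, PDIA6, SEL1L and SHMT2 in both lines, which share their wild-type libraries. The largest was HSPA5, whose nuclear change exceeded the cytoplasmic one by 1.05 ± 0.19 (adjusted p = 0.00222) in AGO1/2 and by 1.11 ± 0.19 (adjusted p = 0.00351) in AGO1/2/3 knockout cells. SHMT2 followed in AGO1/2 knockout cells with 0.93 ± 0.15 (adjusted p = 0.00121) and was 0.61 ± 0.14 in AGO1/2/3 knockout cells (adjusted p = 0.0129). Without both passage 29 libraries 21 members in AGO1/2 and 25 in AGO1/2/3 knockout cells were called, again all more positive in the nucleus (17.2% and 20.5% of all genes in that direction). These differences concern reads relative to the other RNAs of the same fraction, and the fraction markers given above moved in the same nuclear libraries.

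**Figure D5:**
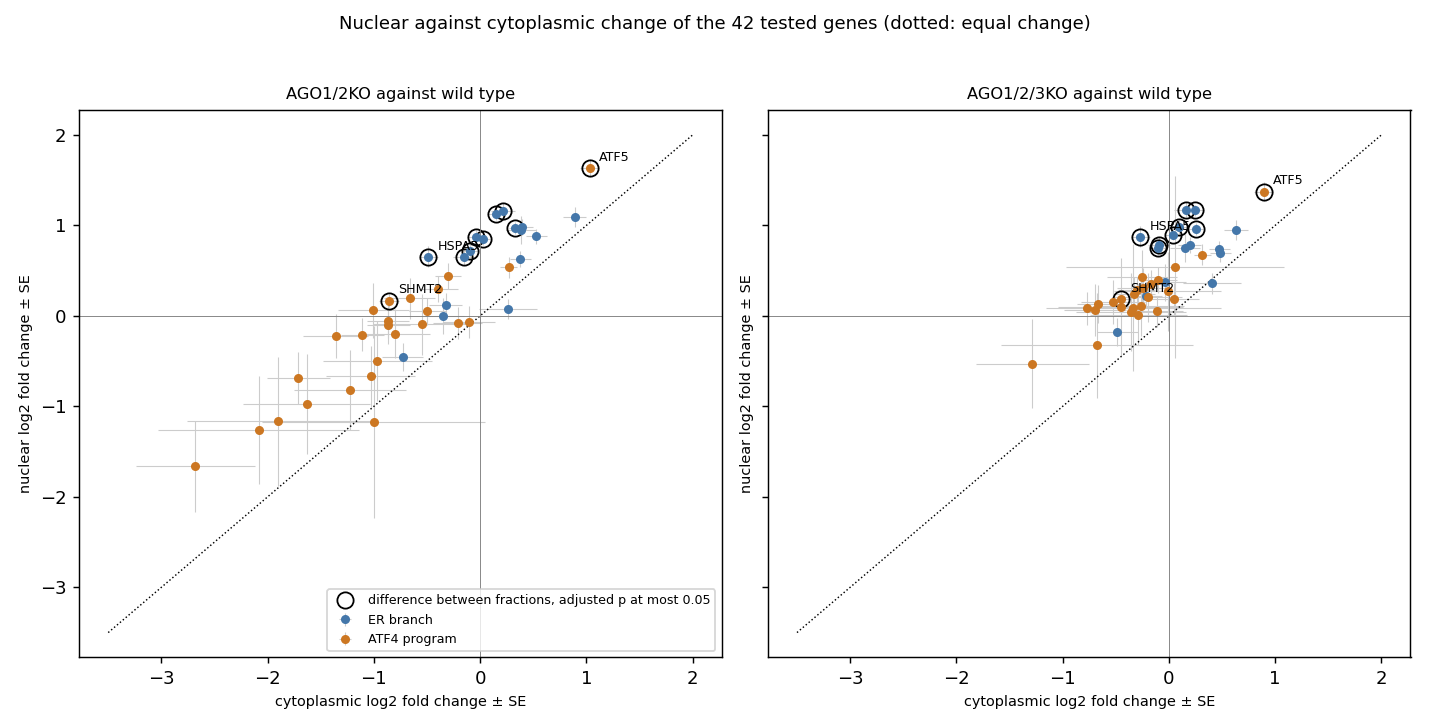
Log2 fold change from wild type in nuclear RNA (vertical axis) against cytoplasmic RNA (horizontal axis) for the 42 tested genes in AGO1/2 knockout (left) and AGO1/2/3 knockout cells (right), with standard errors. The dotted line marks equal change in both fractions and rings mark a called interaction. The 10 ringed genes of each panel all lie above the line, with HSPA5 at 0.65 (nuclear) and -0.49 (cytoplasmic) in AGO1/2 knockout cells.

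Both multiple-knockout lines were also set against each other, which needs no wild-type library. In nuclear RNA edgeR called 0 of the 42 members between AGO1/2/3 and AGO1/2 knockout cells (3.48% of all genes). At an unadjusted p under 0.05 there were 6 (25.1% of all genes), and DESeq2 called 1 (10.5%). In cytoplasmic RNA SHMT2 was called (4.95% of all genes), higher in AGO1/2/3 than in AGO1/2 knockout cells by 0.41 ± 0.09 (adjusted p = 0.0324), with 8 members at an unadjusted p under 0.05 (22.8%) and 3 called by DESeq2 (12%). PHGDH came next (1.02 ± 0.29, adjusted p = 0.0589). The medians of the 42 were 0.18 in nuclear and 0.23 in cytoplasmic RNA, towards AGO1/2/3 knockout cells. A larger rise of ATF4, DDIT3 or TRIB3 in AGO1/2/3 than in AGO1/2 knockout cells was thus not shown by this test, with differences of 0.93 ± 0.58 for nuclear DDIT3 (adjusted p = 0.336) and 1.07 ± 0.55 for nuclear TRIB3 (adjusted p = 0.239).

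Neighbouring genes of both pathways that are not among the 43 were counted from 4 further lists. The shares of all genes that rose and fell by edgeR were 32.9% and 34.7% in nuclear AGO1/2, 29.1% and 29.5% in nuclear AGO1/2/3, 23.9% and 25.4% in cytoplasmic AGO1/2 and 18.6% and 20% in cytoplasmic AGO1/2/3 knockout RNA. By limma on log2(TPM + 1) they were 26.1% and 35.1%, 14.3% and 39.6%, 7.7% and 49.9%, and 8.11% and 37.8%. Of 26 other ER folding and degradation genes tested, 20 rose and 3 fell in nuclear RNA of each multiple-knockout line (medians 0.71 in AGO1/2 and 0.73 in AGO1/2/3), led in AGO1/2/3 by the isomerases P4HB (1.33 ± 0.07) and PPIB (1.13 ± 0.07), while the reductase DNAJC10 (-0.61) and the degradation factor EDEM1 (-0.53) fell. In the cytoplasm 11 rose and 5 fell in AGO1/2 and 13 rose and 3 fell in AGO1/2/3 knockout cells, with ERLEC1 (0.61) and DERL2 (0.53) highest and DERL1 (-0.69) and EDEM3 (-0.50) lowest in the latter. On TPM the balance turned in the cytoplasm, where limma called 5 higher and 15 lower in AGO1/2 and 4 higher and 7 lower in AGO1/2/3 knockout cells. Of the other 16 cytosolic tRNA synthetases, 15 fell and none rose in AGO1/2 knockout cytoplasm by edgeR (median -0.63, beside 25.4% lower of all genes), and 14 fell without passage 29 (25%). On TPM limma called all 16 lower, beside 49.9% of all genes. In the cytoplasm of AGO1/2/3 knockout cells 6 of them fell, led by LARS1 (-0.78 ± 0.12) and FARSB (-0.68 ± 0.09). In nuclear RNA of the same line 9 rose, among them QARS1 (0.49 ± 0.07), and LARS1 and FARSB fell (-0.53 and -0.35), beside 29.1% and 29.5% of all genes. On TPM limma called none of the 16 higher and 4 lower there.

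Of 15 other ATF4 targets tested in nuclear RNA, 4 rose in AGO1/2/3 knockout cells (29.1% of all genes) and 11 without passage 29 (31.3%), among them the glutamine carrier SLC1A5 (0.86 ± 0.12, adjusted p = 1.3e-05) and the glycine carrier SLC6A9 (0.98 ± 0.34, adjusted p = 0.0223) with all libraries. In cytoplasmic AGO1/2/3 knockout RNA the stress protein NUPR1 rose by 2.01 ± 0.62 (adjusted p = 0.019). The proline-synthesis enzyme ALDH18A1 fell by 0.94 ± 0.12 on the log2 scale (adjusted p = 2.62e-05), as did the transaminase GPT2 (-0.69 ± 0.22, adjusted p = 0.0246). Of the 16 targets tested there, NUPR1 included, none had all 3 TPM values above all wild-type values. For 7 of them all 3 were below, beside 39.5% of all genes. Of 13 genes for eIF2, its kinases, its exchange factor eIF2B and its phosphatase subunit, 8 rose and 3 fell in nuclear AGO1/2 knockout RNA (32.9% and 34.7% of all genes). In nuclear AGO1/2/3 knockout RNA 7 rose and 4 fell (29.1% and 29.5%). On TPM limma called 6 higher and 2 lower in nuclear AGO1/2 knockout RNA (26.1% and 35.1% of all genes). It called none higher and 3 lower in nuclear AGO1/2/3 knockout RNA (14.3% and 39.6%). On reads, the heme-regulated kinase EIF2AK1 rose in both fractions of AGO1/2/3 knockout cells (0.49 nuclear, 0.19 cytoplasmic). EIF2AK4 (GCN2), which senses uncharged tRNA, rose on reads by 0.31 in the cytoplasm. However, none of the 13 genes had all 3 TPM values above all wild-type values in the cytoplasm of that line. For 9 of them all 3 were below, beside 39.5% of all genes. The eIF2 subunit EIF2S1 rose by 0.41 in the nucleus. Of the eIF2B subunits, EIF2B3 fell in both fractions (-0.51 and -0.42), EIF2B5 in the nucleus (-0.72) and EIF2B1 in the cytoplasm (-0.52).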

How the data were processed

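Ribosomal RNA-depleted, stranded total RNA of detergent-washed nuclei and of cytoplasm was sequenced, and 30 libraries were used. Another 8 samples, from crosslinking and immunoprecipitation, had no table of this kind and were not used here. The authors used STAR for alignment (hg38) and Salmon for quantification. The processing notes name STAR 2.5.3a and Salmon 0.11.0, and the strand setting is not given in the sources used here. The deposited tables give an estimated count of reads and a TPM value (per effective length, scaled to a fixed total) for each of 200401 transcripts. Of these, 196040 (97.8%) matched GENCODE release 44 (GRCh38) by identifier. The others held 2.23 to 4.01% of reads and were left out, so the estimated counts and TPM of a gene are sums over its matched transcripts.

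Gene sums were rounded to whole numbers, filtered with filterByExpr (minimum count 10), TMM-normalized and tested with edgeR 4.0.16 (quasi-likelihood, R 4.3.3), fitting all 15 libraries of each fraction together. The interaction was fitted to the 12 libraries of wild type and 1 knockout line in both fractions. Standard errors are the absolute log2 fold change over the square root of F. Alternatives were DESeq2 1.42.0, limma 3.58.1 with a trend on log2(TPM + 1) and log2(TPM + 0.1), length-scaled counts, RLE size factors, other count filters, a fit of the compared groups alone, replicate blocks and leaving out each library. The script was tested on simulated data. TPM and normalized counts differ in scale, so a fold change need not equal the ratio of printed TPM.

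The members, role groups and further lists were chosen with earlier results of these data known. A member was named with its value in every library where it was called with an absolute log2 fold change of at least 1, with ATF4, DDIT3, ASNS, TRIB3, HSPA5 and XBP1 always named. For the wild-type fractions and the interaction the 5 largest differences were named, and for the further lists the 2 largest in each direction in AGO1/2/3 knockout cells. The value of 1 gene that this rule names is not reported here. Values given for other members were chosen after they were seen. Deviations of nuclear and cytoplasmic wild-type libraries from their group means correlated within passages (r = 0.255, 0.242 and 0.537 for passages 27, 28 and 29), so the passage pairs these libraries and the blocked result is printed. No 2 libraries held identical values. For a single gene, 3 libraries against 3 allow no exact permutation p below 0.1, so p-values come from the fits across genes. Intervals and limits cover counting error only. Promoters were taken from RefSeq (GRCh38.p14, 250 bases before to 50 after the start), with 40 of 43 members matched. PSPH, SHMT2 and SLC7A11 were not matched.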

Additional observations from a re-analysis of the deposited data

Results flagged for a closer look

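The change from wild type differed between nuclear and cytoplasmic RNA by the interaction test (edgeR, adjusted over all genes tested) for the members below, which flags them for a closer look. The values are the nuclear log2 change minus the cytoplasmic one. In AGO1/2 knockout cells they were 1.05 ± 0.19 for HSPA5 (adjusted p = 0.00222), 0.93 ± 0.15 for SHMT2 (adjusted p = 0.00121), 0.89 ± 0.14 for PDIA4 (adjusted p = 0.000961), 0.86 ± 0.19 for CALR (adjusted p = 0.00678) and 0.83 ± 0.14 for HSP90B1 (adjusted p = 0.00176). In AGO1/2/3 knockout cells they were 1.11 ± 0.19 for HSPA5 (adjusted p = 0.00351), 0.995 ± 0.20 for CALR (adjusted p = 0.00701), 0.90 for PDIA4 (adjusted p = 0.00248), 0.86 for HSP90B1 (adjusted p = 0.0033) and 0.85 for HYOU1 (adjusted p = 0.00648). Both lines are set against the same wild-type libraries. GAPDH, ACTB and KRT8 rose in the same nuclear libraries, and their part in these differences was not tested.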

How the results depend on the processing

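The state of wild-type passage 29 and the choice of scale set most of the limits here. The numbers of members called ranged, with 1 library left out, from 3 to 11 (AGO1), 11 to 22 (AGO2), 17 to 29 (AGO1/2) and 16 to 39 (AGO1/2/3 knockout) in nuclear RNA and from 1 to 4, 0 to 6, 16 to 30 and 8 to 16 in cytoplasmic RNA. For AGO1/2/3 against AGO1/2 knockout cells they ranged from 0 to 2 in each fraction, for the wild-type fractions from 15 to 26, and for the interaction from 9 to 20 (AGO1/2) and 8 to 13 (AGO1/2/3). Leaving out both passage 29 libraries, chosen after seeing the data, gave 33 for the wild-type fractions and 21 and 25 for the interaction. The passage as a replicate block gave 34 for the wild-type fractions against 18 without it. For the interaction, the culture as a replicate block gave 32 (AGO1/2) and 31 (AGO1/2/3) against 10 and 10. Of all genes, 46.2% and 33% were called with the block, against 26.5% and 16.9% without it. The knockout fractions of 1 passage did not all correlate, so that fit is only an alternative. For knockout lines against wild type, No paired analysis was possible because the groups share no passage number.

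By limma with 1 or 0.1 added to TPM, nuclear AGO1 knockout RNA gave 10 and 10 members (main 6), nuclear AGO2 knockout 6 and 6 (main 12), cytoplasmic AGO1 knockout 4 and 4 (main 2) and cytoplasmic AGO2 knockout 11 and 12 (main 2). Limma gave 23 for the AGO1/2 interaction (main 10), and 2 nuclear and 3 cytoplasmic members for AGO1/2/3 against AGO1/2 knockout cells, where DESeq2 gave 1 and 3 (main 0 and 1). Without a low-count filter the numbers were 12 for nuclear AGO1, 20 for nuclear AGO2 and 5 for cytoplasmic AGO2 knockout RNA. A fit of the 2 groups alone gave 1, 0 and 7 for cytoplasmic AGO1, AGO2 and AGO1/2/3 knockout RNA (main 2, 2 and 11). The cause of these shifts was not tested.

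Signs turned on TPM, with 0.1 and then 1 added, for CALR (-0.077 and -0.077), DNAJB9 (-0.13 and -0.10) and PDIA4 (-0.22 and -0.22) in nuclear AGO1 knockout RNA, DNAJB9 (-0.21 and -0.18) and XBP1 (-0.26 and -0.25) in nuclear AGO2, DDIT3 in nuclear AGO1/2/3 (0.099 and 0.069), ATF5 in cytoplasmic AGO2 (-0.00657 and -0.00523), XBP1 in cytoplasmic AGO1/2 (-0.037 and -0.036), and ATF4 (-0.12 and -0.12) and DDIT3 (0.33 and 0.25) in cytoplasmic AGO1/2/3 knockout RNA. Length-scaled counts gave 0.045 and no filter 0.00132 for ATF4 in nuclear AGO1/2 knockout RNA, and a mean count of at least 50 gave -0.012 for PDIA4 in nuclear AGO1 and -0.031 for XBP1 in nuclear AGO2 knockout RNA.

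Leaving out 1 library at a time turned the sign of the following log2 changes, given as the lowest and the highest value over the libraries left out. In nuclear RNA these were ASNS (-1.43 to 0.12), ATF4 (-0.35 to 0.15), DDIT3 (-1.62 to 0.50), HSPA5 (-0.29 to 0.018), TRIB3 (-1.33 to 0.56) and XBP1 (-0.12 to 0.093) in AGO1, ASNS (-1.22 to 0.33), ATF4 (-0.22 to 0.28), DDIT3 (-1.74 to 0.39), TRIB3 (-1.29 to 0.59) and XBP1 (-0.030 to 0.18) in AGO2, ATF4 (-0.20 to 0.30), DDIT3 (-1.67 to 0.45) and TRIB3 (-1.34 to 0.55) in AGO1/2, and ASNS (-0.87 to 0.68), DDIT3 (-0.75 to 1.38) and TRIB3 (-0.28 to 1.61) in AGO1/2/3 knockout cells. In cytoplasmic RNA these were AARS1 (-0.70 to 0.16), ASNS (-1.57 to 0.11), ATF4 (-0.45 to 0.20), DDIT3 (-3.15 to 0.81), PSAT1 (-0.77 to 0.22), TRIB3 (-1.62 to 0.38) and XBP1 (-0.12 to 0.075) in AGO1, ASNS (-1.51 to 0.00273), ATF4 (-0.48 to 0.14), DDIT3 (-2.98 to 0.51), PSAT1 (-0.71 to 0.22), SLC3A2 (-0.38 to 0.12) and TRIB3 (-1.66 to 0.20) in AGO2, ATF4 (-0.40 to 0.23) and DDIT3 (-2.60 to 0.88) in AGO1/2, and AARS1 (-0.77 to 0.085), ATF4 (-0.14 to 0.49), DDIT3 (-1.20 to 2.29), PSAT1 (-0.51 to 0.42) and TRIB3 (-0.85 to 1.01) in AGO1/2/3 knockout cells. All of them turned without wild-type passage 29 except XBP1 in nuclear AGO2 knockout RNA, and TRIB3 in nuclear and ATF4 in cytoplasmic AGO1/2/3 knockout RNA. Those 3 turned without wild-type passage 27, without wild-type passage 28, or without 1 knockout library (-0.00479 for XBP1 without passage 10, -0.17 for TRIB3 without passage 11 and -0.033 for ATF4 without passage 14). XBP1 in cytoplasmic AGO1 knockout RNA also turned without passage 6 (0.00294).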
